A study of Mus musculus with 6 samples.

Results

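The genes described here are 10 transcription factors and receptors of early blood and thymus progenitors: the receptors Kit and Flt3 and the factors Lyl1, Lmo2, Hhex, Mef2c, Bcl11a, Spi1, Meis1 and Tal1. They were chosen by name for their place in early progenitors, with earlier results of these data known. All 10 were measured among the 12393 genes that had a probe set assigned to a single gene symbol. Where a gene had several probe sets, the brightest on average represents it, and the other 6 of the members' 16 probe sets were checked against them. Affymetrix arrays were hybridised with RNA from pooled CD4-CD8- (double-negative, DN) cells of C57BL/6 fetal thymus lobes, taken at day 15 of gestation and kept in organ culture for 6 days. The groups were DN thymocytes from the lobes with 10 nM TCDD (1 array), DN emigrants flushed out of the lobes with 10 nM TCDD (2 arrays, numbered 1 and 2 in the labels), DN thymocytes with the solvent dioxane (1 array) and DN emigrants with dioxane (2 arrays, numbered 1 and 2). TCDD (2,3,7,8-tetrachlorodibenzo-p-dioxin) is a ligand of the aryl hydrocarbon receptor (AHR), a transcription factor switched on by its ligand. In all groups DN cells were pooled for RNA, medium was renewed every 2 days, and CD4 and CD8 magnetic beads gave over 95% DN cells by flow cytometry. Beads of this kind leave in any cell that carries neither marker. Whether replicate arrays were separate cultures is not stated, and p-values therefore reflect array-to-array spread that may be technical, while 2 thymocyte arrays and 4 emigrant arrays limit the precision.

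The progenitors that seed the thymus still hold the capacity to make myeloid cells, and they carry the receptor KIT and factors such as LYL1, LMO2, HHEX, MEF2C and SPI1 (PU.1). As they commit to the T lineage under NOTCH signals, most of these genes are switched off, while TAL1 belongs chiefly to stem cells, red cells, megakaryocytes and mast cells. KIT and FLT3 are tyrosine kinase receptors for stem cell factor and for FLT3 ligand, LMO2 is an adaptor that joins TAL1 or LYL1 to GATA factors, and HHEX and MEIS1 are homeobox factors. MEF2C is a MADS-box factor, BCL11A a zinc-finger repressor, and both are used by lymphoid progenitors and other blood lineages.

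The values are RMA summaries on the log2 scale, so a difference of 1 is 2-fold. Array medians were 4.84 to 4.88, and the highest of 27 probe sets for bacterial control transcripts read 4.32 to 4.92 depending on the array, and a reading under it does not stand out from background. Kit, Flt3, Lyl1, Lmo2 and Hhex stood above it on all 6 arrays, Mef2c on 5, Spi1 and Meis1 on 4, Tal1 on 3 and Bcl11a on 2. The share of genes above it was 57.4% to 73.9% per array. The T-cell gene Cd3e measured 6.99 to 8.91 on the 6 arrays, whereas Cd4 measured 4.93 to 5.19 and Cd8a 4.62 to 5.50. The 22 measured genes of a T-lineage list averaged 7.66 in TCDD thymocytes and 5.82 and 6.83 in TCDD emigrants numbered 1 and 2, against 8.23, 6.04 and 7.85 in the matching dioxane arrays. In RNA from pooled cells, fewer cells of a type and less RNA per cell cannot be told apart.

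Kit had the widest TCDD difference of the members. It measured 8.62 in TCDD thymocytes and 7.25 and 8.56 in TCDD emigrants numbered 1 and 2, against 6.57 in dioxane thymocytes and 7.07 and 7.09 in dioxane emigrants. All 3 TCDD arrays were above all 3 dioxane arrays, though TCDD emigrants numbered 1 lay only 0.17 above their dioxane partner, whereas the thymocyte and number 2 pairs differed by 2.05 and 1.47. The thymocyte difference was 4.14-fold. Over both cell sources Kit averaged 8.14 ± 0.78 with TCDD and 6.91 ± 0.30 with dioxane (SD, n = 3 arrays each). The model gave a difference of 1.23 ± 0.43 (SE; limma, adjusted p = 0.888). In emigrants alone the difference was 0.82 ± 0.49 (SE, n = 2 arrays each; limma, adjusted p = 1.00). With both emigrant arrays numbered 1 left out, an alternative added after the data were seen, the difference was 1.76 ± 0.19 (SE, n = 2 arrays each; limma, adjusted p = 0.128). The other probe set of Kit read 4.42 to 4.99 and differed between TCDD and dioxane by 0.13, -0.24 and -0.20 in the thymocyte, number 1 and number 2 pairs, so it did not show the difference. It was above the highest bacterial control on 4 of 6 arrays and within 1 log2 unit of it on each. The mean of both probe sets gave 0.56 over both sources.

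Kit was the only member whose 3 TCDD arrays lay above its 3 dioxane arrays (3.47% of the 12393 genes did so), and no member lay below (4.61%). Besides Kit, only Lmo2 was higher with TCDD in all 3 pairs (2 of 10 members, against 15.4% of all genes), and no member was lower in all 3 (17.4%). A TCDD minus dioxane difference of at least 1 was found in thymocytes for Kit and Hhex (2 of 10, against 2.83%), in emigrants numbered 1 for no member (3.66%) and in emigrants numbered 2 for Kit (1 of 10, against 3.43%). No member was lower by 1 or more in any of these pairs (2.79%, 2.56% and 2.16% of genes). In emigrants alone, both TCDD arrays lay above both dioxane arrays for Kit, Flt3 and Spi1 (3 of 10, against 10.5%) and below them for no member (14.2%). Flt3 differed by only 0.05 and 0.17 in the number 1 and number 2 pairs, and Spi1 read near the highest bacterial control. Kit, Lmo2 and Mef2c were higher with TCDD in thymocytes and in emigrants numbered 2 (3 of 10, against 28.8%). No gene of the 12393 passed limma at an adjusted p of 0.05 for TCDD against dioxane in emigrants (0% called, 255 genes or 2.06% at an unadjusted p under 0.05) or over both sources (0%, with 659 genes or 5.32% unadjusted). Of the members, only Kit had an unadjusted p under 0.05 over both sources, and none in emigrants.

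Markers of other DN cells differed between the same arrays. Rora, a factor of innate lymphoid cells, measured 9.26 in TCDD thymocytes and 5.33 and 10.45 in TCDD emigrants, against 7.49, 5.67 and 8.84 on the dioxane arrays. Il18r1, an interleukin receptor of innate lymphoid and NK cells, differed by 2.97, -1.39 and 1.43 between TCDD and dioxane in thymocytes, emigrants numbered 1 and emigrants numbered 2, and Id2, an inhibitor of basic helix-loop-helix factors, differed by 2.68, 0.68 and 1.08. Other genes of the list did not run with Kit: Gzma, a granzyme, differed by -0.05, 0.70 and -2.74, and Eomes, a T-box factor of NK cells, by 0.15, -0.48 and -2.01. Of 13 measured genes of this NK and innate lymphoid list, 7 were at least 1 higher with TCDD in the thymocyte pair, 0 in the number 1 pair and 3 in the number 2 pair, where 6 were above 0 and 7 below, and the list averaged 7.53, 6.26 and 7.31 on the TCDD arrays, against 6.39, 6.30 and 7.52 with dioxane. Mast cells also carry KIT. Cpa3, a carboxypeptidase gene of the mast cell list, measured 5.73, 6.75 and 5.54 with TCDD, against 7.25, 6.51 and 8.14 with dioxane. Its TCDD minus dioxane differences were -1.53, 0.24 and -2.60. Those of Dntt (-3.25, 0.13 and -6.36) and Rag1 (-2.70, 0.31 and -6.38), of the T-lineage list, had the same signs, though not all genes of that list did. Mitf, a factor of mast cells and other lineages, did not follow Cpa3, at 5.00, 6.02 and 6.88 with TCDD, against 4.49, 6.31 and 4.83 with dioxane, while the 10 measured mast cell genes averaged 4.69, 5.32 and 4.76 against 4.82, 5.25 and 4.79. The probe sets at the 3' end of beta-actin read 4.15, 3.77 and 3.36 above those at its 5' end with TCDD, against 3.48, 3.06 and 3.01 with dioxane, a measure of shortened RNA or copies. For Gapdh the same measure was 5.86, 5.60 and 4.75 with TCDD, against 6.10, 4.75 and 4.69 with dioxane, so in thymocytes it was lower with TCDD. The part of these cells and of RNA quality in Kit's values was not tested. The genes of most alike profile over the 6 arrays, by the root mean square difference of mean-centred values, were Rnf19b (0.129) and Phf21a (0.177) among 6114 candidates.

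**Figure D1:**
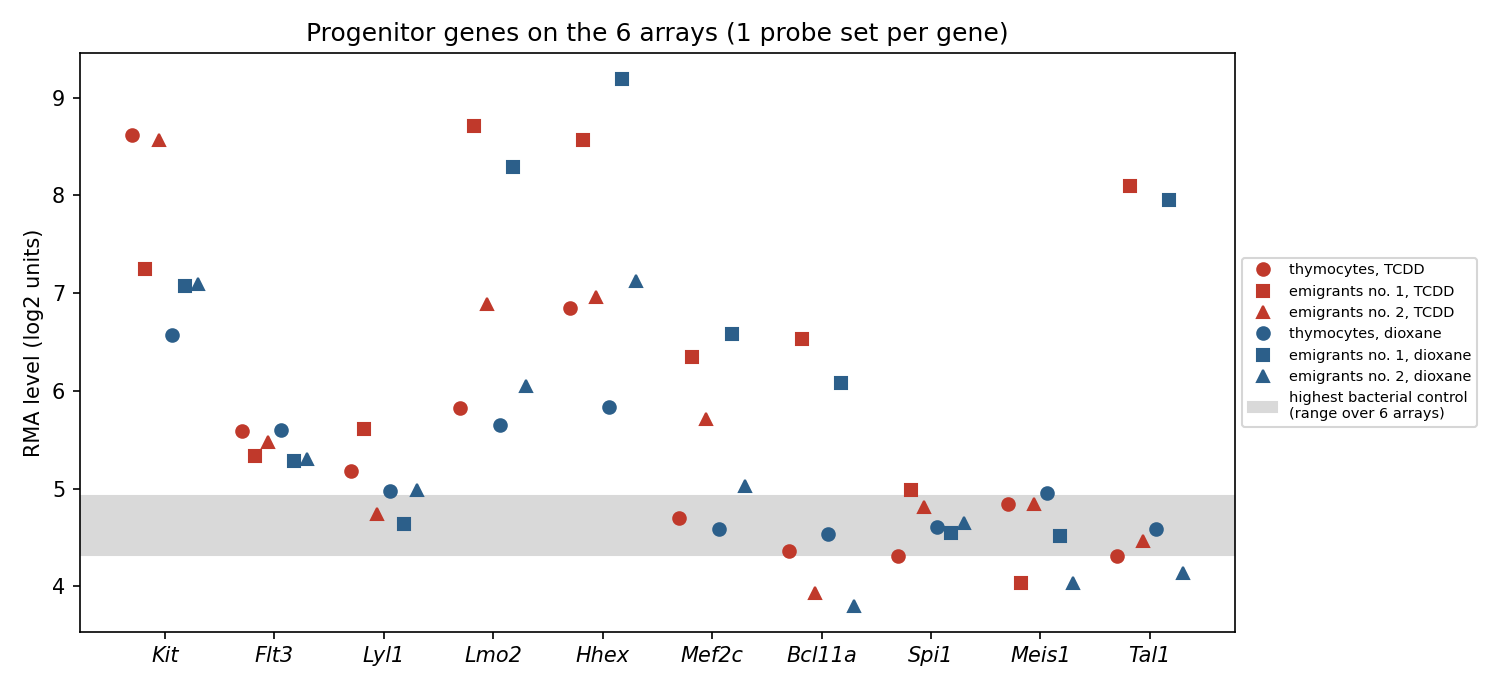
Level of each of the 10 genes on the 6 arrays (log2, RMA), with the TCDD arrays left of the dioxane arrays for each gene and 1 point per array. Kit's 3 TCDD points lie above its 3 dioxane points, whereas Tal1 and Bcl11a are high on the 2 emigrant arrays numbered 1 only.

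The stretch before Kit's start is shown because Kit had the clearest TCDD difference and the AHR is known to bind DNA with the core letters GCGTG. In the RefSeq promoter table (GRCm38.p6) the 250 bases upstream of the first Kit start, chr5:75574737-75574986, plus strand, are given 5′ to 3′ with the core in capitals.
Kit: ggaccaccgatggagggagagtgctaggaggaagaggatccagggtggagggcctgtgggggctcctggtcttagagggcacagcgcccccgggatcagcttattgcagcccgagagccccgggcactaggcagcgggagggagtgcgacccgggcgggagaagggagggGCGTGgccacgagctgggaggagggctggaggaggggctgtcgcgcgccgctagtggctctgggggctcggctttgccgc
The core begins 80 bases before the start. GCGTG or, on the other strand, CACGC was found in 28.2% of 32851 such upstream windows, and a match describes the letters only. This window holds no GATAA or TTATC (22.6% of windows) and no CANNTG (66.2%). Of the members, 8 had an upstream window, in 12 windows in all, and 2 of the 8 held the GCGTG or CACGC letters, Kit and Meis1, whose TCDD difference over both sources was 0.07 ± 0.27 (SE).

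Tal1 and Bcl11a formed the sharpest pattern of the set. Tal1 measured 8.10 in TCDD emigrants numbered 1 and 7.95 in dioxane emigrants numbered 1, whereas the numbered 2 arrays read 4.46 and 4.13 and the thymocyte arrays 4.31 with TCDD and 4.59 with dioxane. Number 1 minus number 2 was thus 3.63 with TCDD and 3.82 with dioxane, and the dioxane reading of number 2 and both thymocyte readings were under the highest bacterial control, so that 3.82 is read against background. Bcl11a measured 6.53 with TCDD and 6.08 with dioxane in emigrants numbered 1, against 3.93 and 3.80 in those numbered 2, and 4.36 with TCDD and 4.54 with dioxane in thymocytes. All 4 of its lower values were below the highest bacterial control, so the differences of 2.60 and 2.28 are read against background. Its second probe set was below that control on all 6 arrays, at 3.28 to 4.03.

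The stretch before Tal1 is printed because Tal1 had the widest range of the 10 genes, 3.97 over the 6 arrays with its lowest reading under the highest bacterial control, and because GATA factors are its known partners. The 250 bases upstream of its first RefSeq start (GRCm38.p6), chr4:115056176-115056425, plus strand, are given 5′ to 3′ with the GATA letters on the other strand, TTATC, in capitals.
Tal1: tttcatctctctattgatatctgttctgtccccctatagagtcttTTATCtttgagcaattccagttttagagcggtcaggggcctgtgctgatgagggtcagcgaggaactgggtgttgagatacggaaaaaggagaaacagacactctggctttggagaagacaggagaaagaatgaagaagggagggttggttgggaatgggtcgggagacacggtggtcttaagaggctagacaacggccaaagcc
The match begins 205 bases before the start, and the same window holds neither GCGTG or CACGC nor CANNTG. The window before the second Tal1 start holds none of the 3 motifs.

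Lmo2 and Hhex shared the higher level of the emigrant arrays numbered 1 but were not limited to them. Lmo2 measured 5.82 in TCDD thymocytes and 8.71 and 6.89 in TCDD emigrants numbered 1 and 2, against 5.65, 8.29 and 6.05 on the matching dioxane arrays. Hhex measured 6.85, 8.57 and 6.96 with TCDD, against 5.84, 9.19 and 7.13 with dioxane. For both genes every emigrant array lay above both thymocyte arrays, and the arrays numbered 1 lay above all others. Number 1 minus number 2 was 1.82 with TCDD and 2.25 with dioxane for Lmo2, and 1.61 and 2.06 for Hhex.

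Mef2c ran the same way with a smaller step. It measured 4.70 in TCDD thymocytes and 6.35 and 5.71 in TCDD emigrants, against 4.59, 6.58 and 5.03 with dioxane, so number 1 minus number 2 was 0.64 with TCDD and 1.55 with dioxane. Each of the 5 probe sets of Mef2c was higher in number 1 than in number 2 with both treatments, and another of them differed by 1.04 and 1.24. On the probe set that represents it, Mef2c was higher on every emigrant array than on both thymocyte arrays, as Lmo2 and Hhex were. Its dioxane thymocyte reading, 4.59, was under the highest bacterial control of that array, 4.72. Not all its other probe sets separated the sources. The next brightest read 4.43 in dioxane emigrants numbered 2, against 4.67 with TCDD and 4.55 with dioxane in thymocytes.

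An emigrant difference of number 1 minus number 2 of at least 1 with both treatments was found for 4 of 10 members, Lmo2, Hhex, Bcl11a and Tal1, against 1.78% of the 12393 genes and 2.28% of the 9685 genes above the highest control on at least 1 array. No member had a difference of -1 or below with both treatments (2.46% of genes), which was the pattern of 9 of the 22 measured T-lineage genes, such as Thy1 at 4.90 with TCDD and 5.69 with dioxane in number 1 and 8.68 and 9.07 in number 2. Both emigrant arrays numbered 1 lay above the other 4 arrays for 5 of 10 members, the 4 named and Mef2c, against 16.1% of genes, and below them for none (13.6%). Members and lists were chosen with earlier results of these data known, so these counts describe the genes and are not a test. No source says what the numbers mark.

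**Figure D2:**
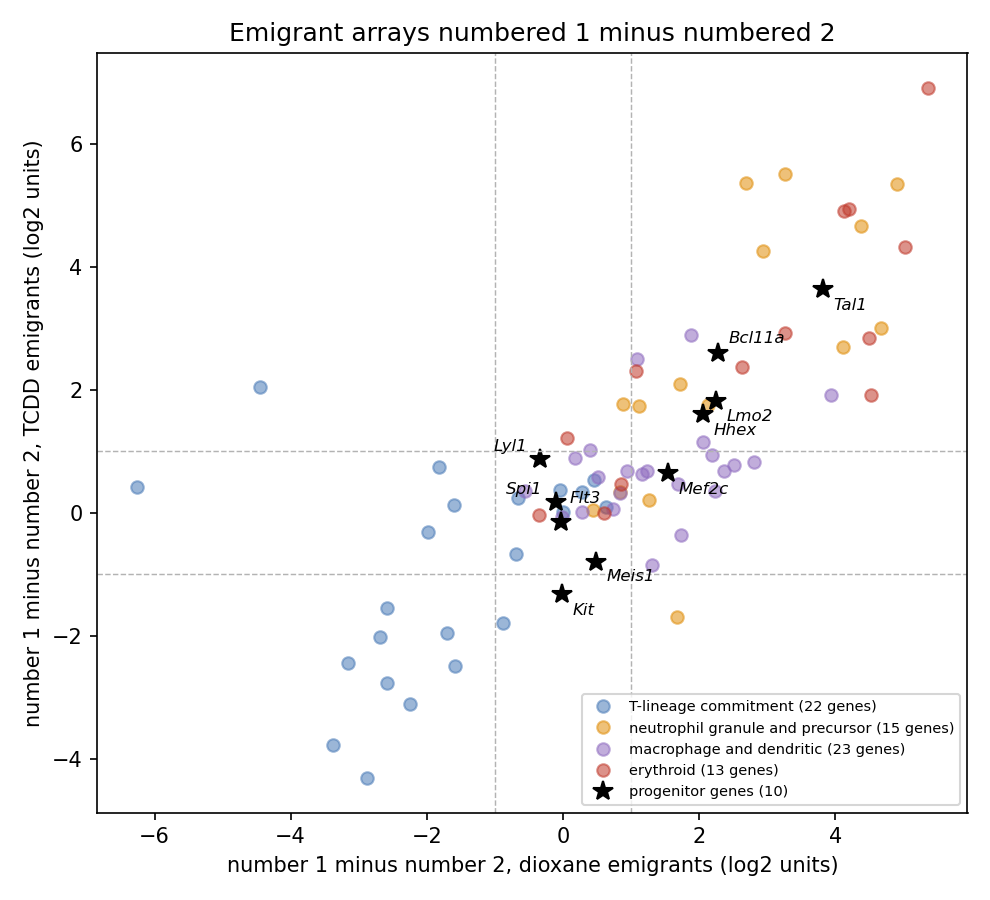
Emigrants numbered 1 minus emigrants numbered 2 (log2) for the 10 genes, with the TCDD difference against the dioxane difference. Tal1 (3.63 and 3.82), Bcl11a, Lmo2 and Hhex lie above 1 with both treatments, and no member lies below -1 with both.

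Many, but not all, markers of myeloid and red cells were highest on the same arrays. Both emigrant arrays numbered 1 lay above the other 4 for 10 of 15 neutrophil and 10 of 13 erythroid genes. The same held for 14 of 23 macrophage and dendritic cell genes, against 16.1% of all genes. Mmp8 of the neutrophil list went the other way with TCDD, at 7.21 in emigrants numbered 1 and 8.91 in those numbered 2. Mpo, which encodes the myeloperoxidase of granulocytes, reached 10.06 with TCDD and 9.83 with dioxane in emigrants numbered 1, against 4.72 to 5.16 on the other 4 arrays. Of the neutrophil list, 10 of 15 measured genes were at least 1 higher in number 1 than in number 2 with both treatments and none lower, and the list averaged 9.31 and 6.84 in TCDD emigrants numbered 1 and 2 and 5.18 in TCDD thymocytes, against 8.26, 5.79 and 5.21 with dioxane. Of the erythroid list 9 of 13 were higher and none lower, with means of 7.79, 5.09 and 5.32 with TCDD against 8.00, 5.24 and 5.26 with dioxane in the same order.

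Alas2, which starts heme synthesis in red cell precursors, and Gata1, the GATA factor of red cells and megakaryocytes, followed the Tal1 arrays. Alas2 measured 7.13 with TCDD and 8.86 with dioxane in emigrants numbered 1, against 4.29 to 4.74 on the other 4, and Gata1 6.61 and 7.05 against 4.24 to 4.91. The mean of the macrophage and dendritic cell list ran in steps, as Lmo2 and Mef2c did. Hhex with TCDD measured 6.85 in thymocytes and 6.96 in emigrants numbered 2. Not every gene of the list ran so: with TCDD, Cd68 measured 8.69 in emigrants numbered 1 and 9.54 in those numbered 2. The list averaged 8.60, 7.88 and 6.12 in TCDD emigrants numbered 1 and 2 and TCDD thymocytes, against 8.10, 6.73 and 5.63 with dioxane. Csf1r, the receptor for macrophage colony-stimulating factor, measured 12.39, 10.47 and 7.57 with TCDD, against 12.59, 8.64 and 7.54 with dioxane, in that order. The number 1 pattern was found in 4 of 23 macrophage and dendritic cell genes, 1 of 10 mast cell genes and 1 of 9 megakaryocyte genes, and in none of 13 B-lineage, 8 plasmacytoid dendritic cell, 5 gamma-delta T-cell, 15 endothelial and fibroblast and 11 thymic epithelial genes. The part of myeloid and red cells in the levels of the members was not tested.

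**Figure D3:**
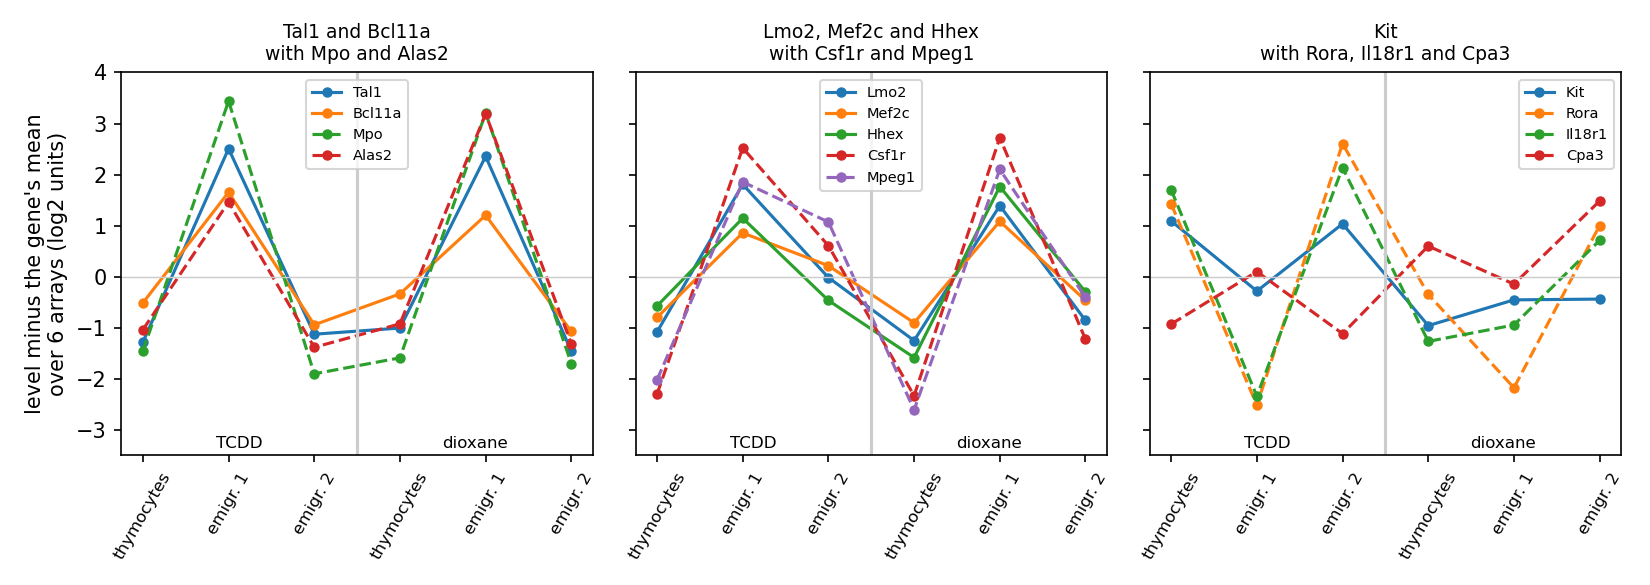
Profiles of members and marker genes over the 6 arrays (log2, each gene centred on its own mean), with lines that only join the points of a gene. Tal1 and Bcl11a are high on the emigrant arrays numbered 1, as Mpo and Alas2 are, while Lmo2 and Mef2c step up over thymocytes, emigrants numbered 2 and emigrants numbered 1, as Csf1r does. Hhex does so with dioxane, but with TCDD its points for thymocytes and emigrants numbered 2 are close. Kit is high in TCDD thymocytes and in TCDD emigrants numbered 2, where Cpa3 is low.

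By the same root mean square measure over the 6 arrays, the genes nearest to Tal1 were Cldn13 (0.206) and F13a1 (0.233), and those nearest to Bcl11a were Tmcc2 (0.197) and Abcb4 (0.269). Lmo2 was nearest to Fcgr4 (0.168) and Cd86 (0.187), and Mef2c to Lamp2 (0.143) and Cln8 (0.146). Hhex had more distant neighbours, St3gal5 (0.381) and Ctsc (0.388).

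Between emigrants and thymocytes, with treatment as a covariate, Lmo2 differed by 1.75 ± 0.78 (SE; limma, adjusted p = 0.739) and Hhex by 1.62 ± 0.76 (limma, adjusted p = 0.774). Mef2c differed by 1.27 ± 0.46 (limma, adjusted p = 0.658), and it was the only member with an unadjusted p under 0.05, against 7.1% of genes. The mean of the 5 Mef2c probe sets gave 0.61. Tal1 differed by 1.71 ± 1.39 and Bcl11a by 0.63 ± 0.92, with their number 1 and number 2 arrays far apart. No gene of the 12393 was called in this comparison (0%), with 880 at an unadjusted p under 0.05, and 7 genes, no member among them, were called without dioxane emigrants numbered 2. All 4 emigrant arrays lay above both thymocyte arrays for Lmo2, Hhex and Mef2c (3 of 10 members, against 5.46% of genes) and below them for Flt3 and Meis1 (2 of 10, against 10.8%). Flt3 differed by only -0.24 ± 0.15 (SE). Meis1 readings of TCDD emigrants numbered 1 (4.04) and dioxane emigrants numbered 2 (4.03) were under the highest bacterial control of their array. With both emigrant arrays numbered 1 left out, the emigrant minus thymocyte difference was 0.73 ± 0.21 for Lmo2 and 0.73 for Mef2c, whereas that of Bcl11a was -0.58 and that of Tal1 -0.15.

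For Lmo2, Tal1 and Bcl11a every TCDD difference was smaller than the difference between emigrant arrays numbered 1 and 2. Over both sources Lmo2 differed by 0.48 ± 0.73 and Tal1 by 0.07 ± 1.31 (SE). Within the thymocyte, number 1 and number 2 pairs TCDD minus dioxane was 0.17, 0.42 and 0.84 for Lmo2, 0.11, -0.23 and 0.68 for Mef2c, 1.01, -0.62 and -0.17 for Hhex, -0.18, 0.45 and 0.13 for Bcl11a and -0.28, 0.15 and 0.33 for Tal1. Hhex was thus 2.01-fold higher with TCDD in thymocytes, and below its dioxane partner in both emigrant pairs. Such a split, the thymocyte pair one way and both emigrant pairs the other, was seen for 5 of 10 members, against 20.3% of all genes. Besides Hhex these were Tal1, Spi1, Bcl11a and Flt3. For Tal1, Spi1 and Bcl11a both thymocyte readings were under the highest bacterial control of their array, and Flt3 differed by only -0.010 in thymocytes.

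**Figure D4:**
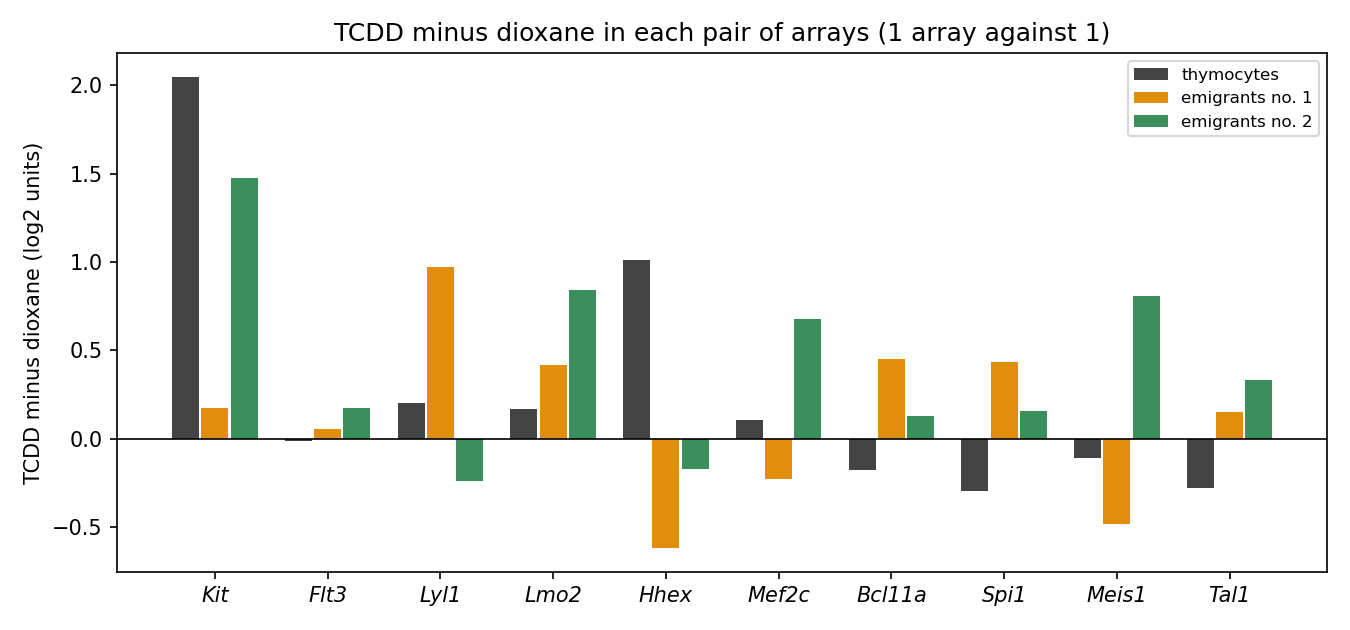
TCDD minus dioxane (log2) for the 10 genes in the thymocyte pair and the emigrant pairs numbered 1 and 2, 1 array on each side of a difference. Kit differs by 2.05 in thymocytes and 1.47 in emigrants numbered 2 and by 0.17 in those numbered 1, and Hhex by 1.01 in thymocytes and -0.62 and -0.17 in emigrants numbered 1 and 2.

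Flt3, Lyl1, Spi1 and Meis1 spanned less than 1 log2 unit over the 6 arrays. Flt3 measured 5.59, 5.34 and 5.48 with TCDD, against 5.60, 5.28 and 5.31 with dioxane, in thymocytes and emigrants numbered 1 and 2, and its range of 0.32 was the narrowest of the members. Lyl1 measured 5.18, 5.61 and 4.74 with TCDD, against 4.98, 4.64 and 4.98 with dioxane, and its pair in emigrants numbered 1 differed by 0.97. Lyl1, whose protein is a close relative of TAL1, did not have the number 1 pattern of Tal1, at 0.87 with TCDD and -0.34 with dioxane.

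Spi1, which encodes PU.1, measured 4.31, 4.98 and 4.81 with TCDD, against 4.61, 4.55 and 4.65 with dioxane. Meis1 measured 4.84, 4.04 and 4.84 with TCDD, against 4.95, 4.52 and 4.03 with dioxane. Both lie near the highest bacterial control. TCDD minus dioxane over both sources was 0.07 ± 0.15 for Flt3, 0.31 ± 0.27 for Lyl1, 0.10 ± 0.19 for Spi1 and 0.07 ± 0.27 for Meis1 (SE; limma, adjusted p = 0.999 for each).

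Among the signalling partners of KIT and FLT3, 16 genes were measured. With TCDD over both sources none of them was called, and 13 were above 0 and 3 below (5847 and 6546 of all 12393 genes). The largest differences were 0.84 ± 0.63 for Pik3r1 and 0.61 ± 0.17 for Cbl, the ubiquitin ligase that takes down active receptors (SE; limma, adjusted p = 0.811 for Cbl). Kitl, the KIT ligand, measured 5.04 to 5.26 on the 6 arrays. The median TCDD difference was 0.11 for these genes and 0.12 for the members, against -0.02 for all genes.

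Among 33 measured partners of the progenitor network, 12 were above 0 and 21 below over both sources with none called. Of all 12393 genes, 5847 were above 0 and 6546 below. In all 3 pairs, 3 of the 33 were higher and 9 lower, against 15.4% and 17.4% of all genes. Sox4, an SRY-box factor of early lymphoid cells, differed by -1.61, -1.36 and -2.40 in the thymocyte, number 1 and number 2 pairs (-1.79 ± 0.35, SE; limma, adjusted p = 0.767). Myb, a factor of immature blood cells, differed by -1.50, -0.52 and -5.19, Gfi1, a zinc-finger repressor of blood progenitors, by -1.19, 0.53 and -2.97 (-1.21 ± 0.62, SE), and Cd93, a surface receptor of progenitors and myeloid cells, by 1.06, 0.87 and 1.61 (1.18 ± 0.26, SE; limma, adjusted p = 0.811). Only 1 of the 33, Nfe2, was at least 1 higher in emigrants numbered 1 than in number 2 with both treatments. The same was found for 4 of the 10 members and 1.78% of all genes. Nfe2, an erythroid and megakaryocyte factor, is named because of this count, after its values were seen. Its number 2 readings, 4.10 with TCDD and 4.21 with dioxane, were under the highest bacterial control, so its differences are read against background.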

How the data were processed

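RNA of DN cells was measured on 6 Affymetrix arrays of 22690 probe sets. The deposited values are RMA summaries on the log2 scale, per the submitters' processing notes, so background correction and normalisation across arrays were done by the authors; its version is not given in the sources used here. Differences of dim genes are compressed by this method.

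No further normalisation was applied. The 64 control probe sets were left out, 691 probe sets with several genes and 1555 with none were not used by gene, and the other 20380 gave 12393 genes, each represented by its probe set of highest mean (4956 genes had several). Over all genes, limma 3.58.1 (lmFit, eBayes; R 4.3.3) was run, with Benjamini-Hochberg adjustment and an adjusted p threshold of 0.05: TCDD against dioxane in emigrants, the same over both sources with source as a covariate, and emigrants against thymocytes with treatment as a covariate. A lone thymocyte array is assumed to vary like the others. Pairs of arrays and array numbers were compared as differences, with no test. The code was tested on simulated data.

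All 10 members were part of each comparison, but not every member's value is given for each. From each list up to 4 genes of largest difference, or marker levels, are named, except where the text says otherwise, and for members spanning at least 1 log2 unit the 2 genes of most alike profile. Members and lists were chosen with earlier results of these data known. Alternatives were cyclic loess, array median centring, the mean of all probe sets of a gene, an intensity trend, a restriction to genes of at least median brightness, the array number as a block, no covariate, and leaving out each array. Leaving out both emigrant arrays numbered 1 was added after the data were seen. Promoter sequences and gene starts are from RefSeq (GRCm38.p6).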

Additional observations from a re-analysis of the deposited data

Results flagged for a closer look

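For 5 of the 10 genes the thymocyte pair differed one way between TCDD and dioxane and both emigrant pairs the opposite way, against 20.3% of all genes; the difference between cell sources was not tested. Hhex was 1.01 log2 units higher with TCDD in thymocytes and differed by -0.62 and -0.17 in emigrants numbered 1 and 2. Tal1 differed by -0.28 in thymocytes and by 0.15 and 0.33 in emigrants, Spi1 by -0.29 against 0.44 and 0.16, and Bcl11a by -0.18 against 0.45 and 0.13. Flt3 differed by -0.010 in thymocytes and by 0.05 and 0.17 in emigrants. For Tal1, Spi1 and Bcl11a both thymocyte readings were under the highest bacterial control of their array, so the thymocyte sign of these 3 genes compares background readings. Each of these differences sets 1 array against 1 array.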

How the results depend on the processing

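TCDD against dioxane called 0 genes in emigrants and over both sources under every alternative run. Emigrants against thymocytes called 0 genes, except 7 without dioxane emigrants numbered 2 (0 to 7 over single arrays left out; smallest adjusted p 0.0329), none of them a member. The 4 members with the number 1 pattern became 5 at 0.5 log2 units, and the 2 higher in all pairs became 3 without the number 1 arrays. Kit over both sources ranged from 0.82 to 1.72 with single arrays left out. Ranges that crossed 0 were, in emigrants, -0.07 to 0.80 for Lyl1, -0.50 to 1.75 for Lmo2, -1.42 to 0.64 for Hhex, -0.55 to 1.00 for Mef2c, -1.01 to 1.59 for Bcl11a, -0.24 to 0.57 for Meis1 and -1.67 to 2.15 for Tal1. Over both sources they were -0.21 to 1.07 for Lmo2, -0.39 to 0.80 for Hhex, -0.27 to 0.62 for Mef2c, -0.65 to 0.83 for Bcl11a, -0.0061 to 0.30 for Spi1, -0.18 to 0.28 for Meis1 and -1.07 to 1.11 for Tal1. In emigrants against thymocytes they were -0.71 to 0.51 for Kit, -0.28 to 0.093 for Lyl1 and -0.0068 to 0.58 for Spi1. The mean of all probe sets gave Bcl11a -0.034 in emigrants and -0.018 over both sources, and Kit 1.09 in the thymocyte pair. Without both number 1 arrays, TCDD over both sources gave -0.019 for Lyl1, -0.023 for Bcl11a and -0.068 for Spi1, and emigrants against thymocytes gave 0.23 for Kit, -0.58 for Bcl11a and -0.15 for Tal1; the cause was not tested. With the array number as a replicate block, 0 genes were called (smallest adjusted p 0.495 in emigrants and 0.282 over both sources), and Kit over both sources was 1.23 ± 0.38 (SE; limma, adjusted p = 0.379). Deviations of the number 1 arrays from their group means correlated between treatments (r = 0.56 across genes, which are not independent replicates), and with 2 pairs the arrays share only a number. The filter at the median level gave no value for Lyl1, Bcl11a, Spi1 and Meis1. Signal over background limits Bcl11a, Spi1, Meis1 and Tal1.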
